A study of Mus musculus with 6 samples.

Results

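The genes described here carry IGF1 and insulin signals from the cell surface through PI3K, AKT and mTOR to the FOXO transcription factors. A list of 32 such genes was read on Affymetrix Mouse Genome 430 2.0 arrays in sorted LSK cells, a lineage-depleted bone marrow fraction positive for c-Kit and Sca-1 that holds the blood stem cells and early progenitors. Each gene was represented by the probe set with the highest mean signal over the 6 arrays, among probe sets that name only that gene. By this rule 31 of the 32 were measured, out of 18193 genes with a probe set of their own. The expression of Rps6kb1, which encodes the S6 kinase, was not analysed here, but its promoter is counted further below. Each of the 3 litters gave 1 Ercc1-deficient and 1 Ercc1-proficient sample. The deficient mice were -/d, with 1 knockout and 1 truncated Ercc1 allele. The proficient mice were +/+ in litters 1 and 2 and +/d, so carriers of the truncated allele, in litter 3. All 6 samples came from F1 mice of a cross between C57BL/6 and FVB/n, aged 22 weeks in litter 1 and 20 weeks in litters 2 and 3. The alleles are carried in the germ line, so every tissue of the mouse was deficient and not the marrow alone, and it is not stated in the labels if a sample was 1 mouse or a pool.

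IGF1 and insulin bind receptor tyrosine kinases, which recruit PI3K and thereby activate AKT. AKT holds FOXO factors out of the nucleus and lifts the TSC brake on Rheb, which turns on the mTORC1 complex and with it protein synthesis. Low energy and stress act the other way, through LKB1, AMPK, sestrins and Ddit4. Blood stem cells depend on this balance, since FOXO factors and the TSC complex keep them quiescent. ERCC1 is a subunit of a DNA repair endonuclease, and mice with little of it age early and have a damped growth hormone and IGF1 axis.

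The labels were checked first on Ercc1 itself. Its brightest probe set gave signals of 79.9, 34.5 and 44.9 in the deficient arrays of litters 1, 2 and 3, against 128, 244 and 176 in the proficient arrays, in the linear MAS5 units used throughout. The groups did not overlap, and the log2 difference of signal + 30, deficient minus proficient, was -1.36 (SE 0.27, limma with litter as a block, adjusted p = 0.0138). No deposited signal lay below a floor of 30, and 53.3 to 58.6% of probe sets sat on it in deficient arrays, against 52.3 to 57.7% in proficient arrays. Marker genes of LSK cells and of granulocytes moved with genotype. All 11 tested granulocyte genes were higher in deficient cells, 7 of them called, with summed signals of 18454 to 115940 in deficient arrays and 3990.3 to 36255 in proficient arrays, and Mmp8 was at the floor on all 6. Of 8 tested LSK genes, 6 were lower on the mean, and Flt3, Procr and Hlf were called lower and none higher. Kit, Cd34 and Meis1 were lower in all 3 litters but not called, at log2 differences of -0.53, -0.50 and -0.82. Cd48, at a log2 difference of 0.76 (limma adjusted p = 0.153), and Slamf1, at 0.36, lay on the other side of 0. Median centring called 3 of the 8 lower and 1 higher, and quantile normalization 1 lower. The summed signals of the LSK genes were 2079 to 3309 in deficient arrays, against 3063 to 4509 in proficient arrays. In bulk samples, fewer cells of a type and less RNA per cell cannot be told apart, and the part of these shifts in the values below was not tested. Stromal, endothelial and fat genes gave 0 calls among 5 tested and summed signals of 471 to 605 in deficient and 532 to 590.1 in proficient arrays, with Col3a1, Lepr, Pdgfra and Adipoq at the floor on all arrays. Macrophage genes gave 0 calls among 6, with all 6 higher on the mean, also after median centring or quantile normalization. Their summed signals were 820.1 to 2562 in deficient and 724 to 1353 in proficient arrays, with C1qa, C1qc, Marco, Cd14 and Mertk at the floor on all arrays. Of the other lists, platelet genes gave 1 call of 8, Selp, which was higher, and lymphocyte and erythroid genes gave 0 of 8 and 0 of 6. On the mean, 3 platelet genes were higher and 5 lower, 6 lymphocyte genes higher and 2 lower, and 0 erythroid genes higher and 6 lower. After median centring these splits were 5 and 3, 7 and 1, and 2 and 4.

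None of the pathway genes passed the test between genotypes. Of the 31 measured genes, 27 were bright enough to be tested and 0 were called at an adjusted p under 0.05, against 0.835% of all 22519 probe sets tested. At an unadjusted p under 0.05 there were 4, or 14.8% of the 27, against a background of 11.5%, and these were Sgk1, Igfbp7, Ddit4 and Deptor. On the mean of the litters 13 genes were higher and 14 lower, or 17 and 10 once each array was centred on its median, with a median log2 difference of -0.05, against -0.03 over all tested probe sets. The median size of the difference, whatever its sign, was 0.176 for the pathway genes and 0.176 for all probe sets tested. For 23 of the 27 genes the 95% interval of this log2 difference lay wholly between -1 and 1, and the median standard error was 0.24. Because 30 is added to each signal, the same fold change gives a smaller difference in a dim gene, so these intervals do not bound the fold change of genes near the floor. With group as the only term, limma called 0 of 22519 probe sets, and 1 pathway gene, Igfbp7, had an unadjusted p under 0.05. For 20 of the 27 genes the 3 litters did not all lie on the same side of 0.

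**Figure D1:**
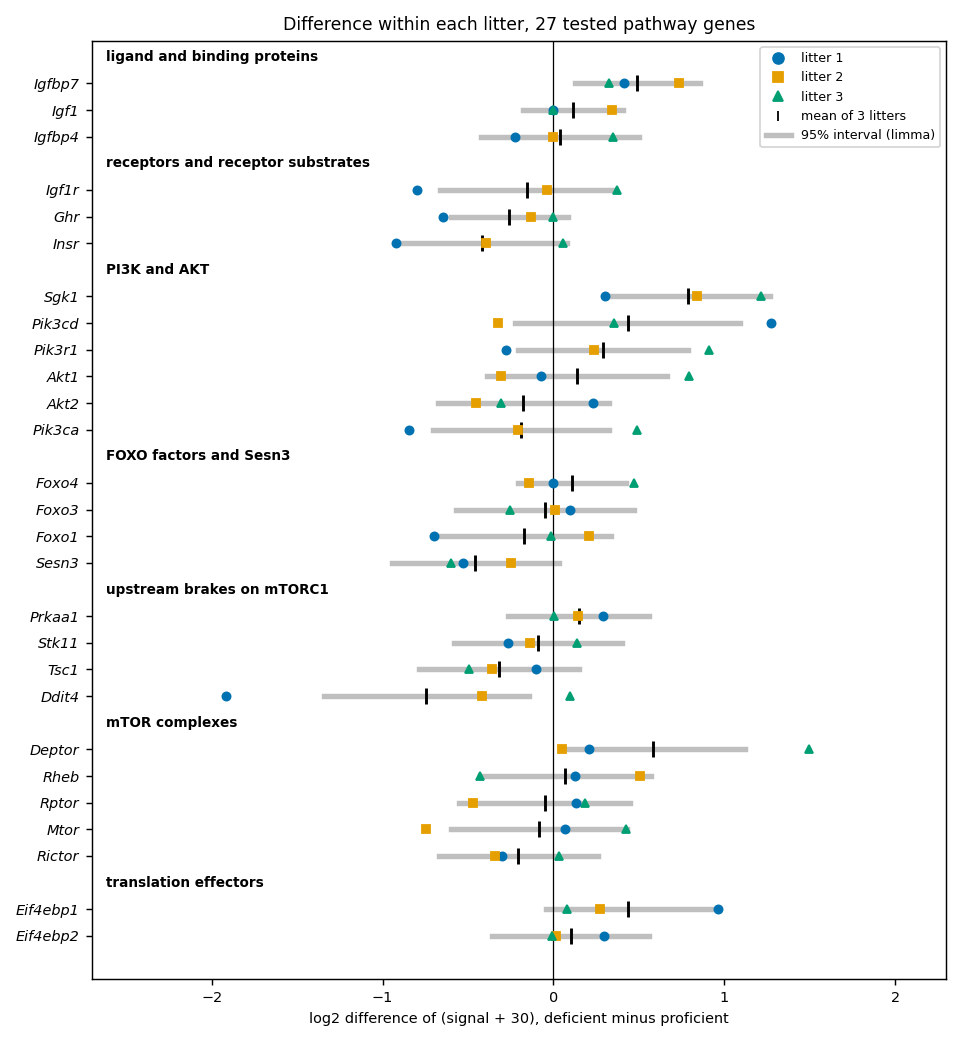
Log2 difference of signal + 30, deficient minus proficient, on the horizontal axis for each of the 27 tested genes, grouped by role. Coloured symbols are the 3 litters, black ticks their mean and grey bars the 95% interval from limma; Sgk1 and Igfbp7 lie to the right of 0 in all 3 litters, and Ddit4 in litter 1 lies farthest to the left, at -1.91.

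Consistency over litters was counted without a test, on the brightest probe set of each gene. Sgk1, Igfbp7, Deptor, Eif4ebp1 and Prkaa1 were higher in deficient cells in each of the 3 litters, 18.5% of the tested genes against 11.3% of all probe sets tested. Tsc1 and Sesn3 were lower in all 3 litters, 7.41% against 17%. Deficient and proficient signals did not overlap for Igfbp7 and Sesn3, again 7.41%, against 7.19% of all probe sets tested, so this count was near the background.

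The ligand was hardly measured in these cells. Igf1, the growth factor made mainly by liver and also by stroma, gave 30, 47.4 and 30 in deficient cells, against 30, 31.1 and 30 in proficient cells. Its signal therefore left the floor only in litter 2, in both genotypes, and the next probe set of the gene lay between 30 and 39.8 on all arrays. Igfbp4, a secreted protein that binds IGFs and limits their access to the receptor, gave 676, 517 and 652 in deficient cells, against 795, 518 and 505 in proficient cells, and its log2 difference of 0.041 was smaller than its standard error of 0.22. Igfbp7, a secreted protein related to the IGF binding proteins, gave 52.2, 77 and 48.7 in the deficient arrays of litters 1, 2 and 3, against 31.6, 34.2 and 32.9 in the proficient arrays. Every deficient array lay above every proficient one, although the proficient arrays were within a few units of the floor. The log2 difference was 0.49 (SE 0.18, limma adjusted p = 0.253), with a 95% interval of 0.13 to 0.86, so the gene was not called. Both other probe sets of Igfbp7 were at 30 on all 6 arrays.

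On their brightest probe sets the receptors were all lower on the mean, and none was called. Each also had a dimmer probe set above 0. This was 1 of 4 tested for Igf1r, at a log2 difference of 0.31, 1 of 2 for Ghr, at 0.12, and 1 of 2 for Insr, at 0.032. The insulin receptor, Insr, gave 202, 163 and 188 in the deficient arrays of litters 1, 2 and 3, against 409, 224 and 179 in the proficient arrays. The difference came from litters 1 and 2, with litter differences of -0.92, -0.39 and 0.059, and the genotypes overlapped. Its mean log2 difference was -0.42 (SE 0.24, limma adjusted p = 0.537), and -0.17 without litter 1. The IGF1 receptor, Igf1r, gave 260.2, 188 and 328 in deficient cells, against 475, 194 and 247 in proficient cells, and its litter differences of -0.80, -0.038 and 0.37 changed sign between litters 1 and 3. The growth hormone receptor, Ghr, which drives Igf1 transcription in liver, gave 30, 39.2 and 30 in deficient cells, against 63.7, 45.7 and 30 in proficient cells, so only litters 1 and 2 carried signal. The receptor substrates that link these receptors to PI3K could not be read: Irs1 was at 30 on all 6 arrays, and Irs2 left the floor on 1 array only, at 30.9, in proficient cells of litter 1.

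**Figure D2:**
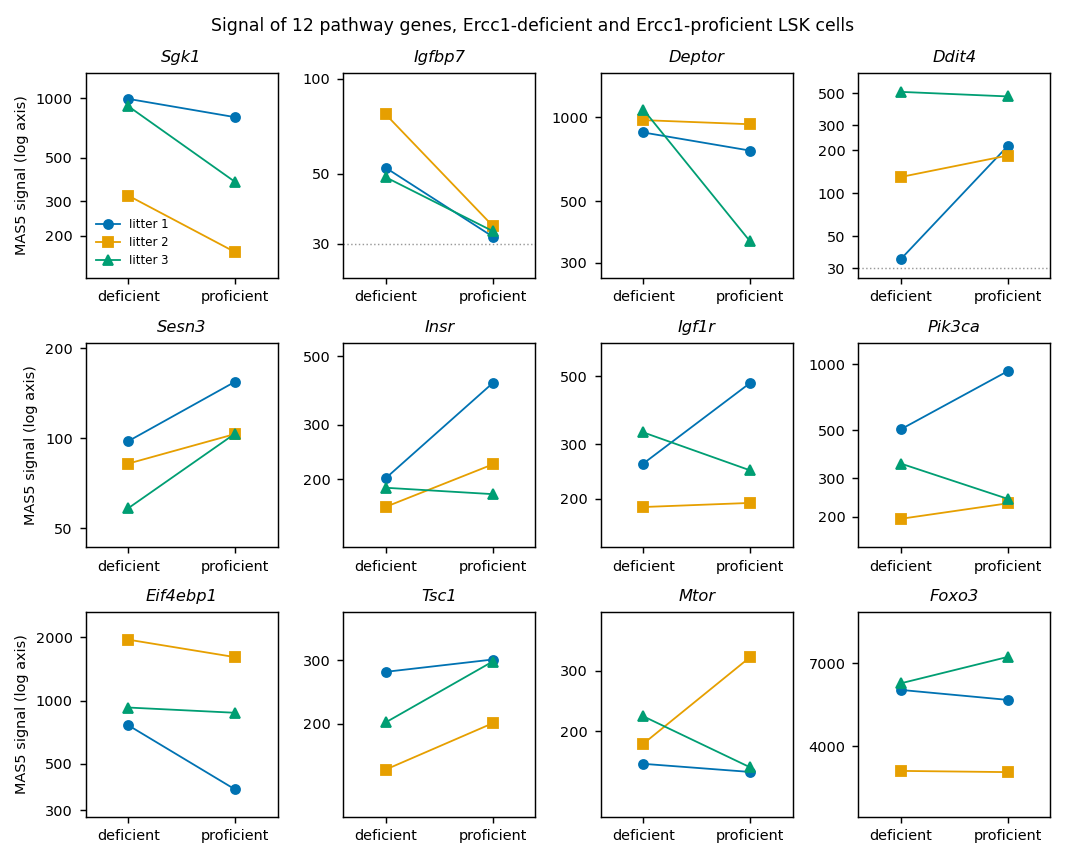
MAS5 signal on a log axis for 12 genes, with deficient cells on the left and proficient cells on the right of each panel and a line joining the litter mates. Dotted lines mark the floor of 30; the lines of Sgk1 and Igfbp7 fall from left to right in all 3 litters and those of Sesn3 and Tsc1 climb, while those of Igf1r, Pik3ca and Mtor run both ways.

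Sgk1 had the lowest adjusted p of the pathway. It encodes a kinase closely related to AKT that acts downstream of PI3K and mTORC2 and phosphorylates FOXO factors, and its transcription is induced by glucocorticoids and by cell stress. Its only tested probe set gave 994, 320.3 and 912 in the deficient arrays of litters 1, 2 and 3, against 802, 165 and 376 in the proficient arrays. The deficient array was brighter in each litter, by log2 differences of 0.30, 0.84 and 1.21, but litter 2 was dim in both genotypes and the groups overlapped. The mean log2 difference was 0.79 (SE 0.23, limma adjusted p = 0.135), with a 95% interval of 0.31 to 1.27. Centring each array on its median was the one alternative under which it was called, at an adjusted p of 0.0376, and over all 20 alternatives its adjusted p lay between 0.0376 and 1.

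Promoter windows were looked up for Tsc22d3 and for the 4 members with an unadjusted limma p under 0.05, so their results were already known. Tsc22d3, a gene outside the members, was called lower on its brightest probe set and lay higher on its second. No window was available for Deptor. The letters are printed for Sgk1, Ddit4 and Tsc22d3, all 3 known to respond to glucocorticoids, and not for Igfbp7. The windows run from 250 bases before to 50 bases after an annotated start, are taken from RefSeq (GRCm38.p6), and are written 5′ to 3′ on the gene's own strand. Capitals mark the glucocorticoid receptor half-site AGAACA or its reverse complement TGTTCT, searched on both strands. The Sgk1 window is chr10:21993640-21993939 (plus strand), the Ddit4 window chr10:59951721-59952020 (minus strand) and the Tsc22d3 window chrX:140600473-140600772 (minus strand).
Sgk1: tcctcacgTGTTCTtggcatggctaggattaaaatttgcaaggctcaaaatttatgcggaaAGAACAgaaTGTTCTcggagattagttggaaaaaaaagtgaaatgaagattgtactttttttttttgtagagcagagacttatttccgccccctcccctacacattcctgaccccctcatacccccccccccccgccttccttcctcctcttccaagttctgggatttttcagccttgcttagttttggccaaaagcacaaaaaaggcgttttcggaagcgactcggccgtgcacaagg
Ddit4: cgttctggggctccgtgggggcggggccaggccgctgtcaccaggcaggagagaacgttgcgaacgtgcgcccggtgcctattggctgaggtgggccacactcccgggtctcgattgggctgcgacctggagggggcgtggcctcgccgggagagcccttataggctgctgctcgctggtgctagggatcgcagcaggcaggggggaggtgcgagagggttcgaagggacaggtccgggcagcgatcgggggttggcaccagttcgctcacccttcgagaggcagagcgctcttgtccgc
Tsc22d3: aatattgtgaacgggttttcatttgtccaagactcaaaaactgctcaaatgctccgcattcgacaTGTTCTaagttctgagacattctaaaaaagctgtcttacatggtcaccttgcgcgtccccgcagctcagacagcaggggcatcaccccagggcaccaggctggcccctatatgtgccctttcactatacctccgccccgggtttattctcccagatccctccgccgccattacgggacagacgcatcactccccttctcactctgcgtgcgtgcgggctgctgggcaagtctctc

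In the Sgk1 window, AGAACA at position -189 and TGTTCT at position -180 face each other with 3 bases between them, counted from the start site, and a further TGTTCT lies at -242. That spaced pair occurs in 3 of the 32851 promoter windows of the whole table, or 0.00913%. Sgk1 has 6 windows in it, of which 1 holds the pair. None of the windows of the glucocorticoid target genes listed further below holds it. Among those genes only Tsc22d3 and Sult1a1 have a half-site, and Zbtb16 and Cdkn1c have no window. The half-site alone is common: it is in 19.0% of all windows and in 5 of the 41 windows of the 28 pathway genes in the table, or 12.2%, belonging to Pik3cd, Rps6kb1 and Sgk1. Tsc22d3 had 1 half-site, at -185, in 1 of its 3 windows. These letters were not in the Ddit4 window or in the 1 window of Igfbp7. The FOXO element GTAAACA or TGTTTAC was in 2 of the 41 windows, those of Akt1 and Stk11, which is 4.88% against 3.65% of all windows. The cyclic AMP response element TGACGTCA was in 0 of the 41 windows and in 1.79% of all. The windows of the pathway genes were rich in G and C, with a median of 61.3% and 22 CpG dinucleotides, against 52.7% and 7 over all windows. These letters describe the windows and show no binding.

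Among the PI3K genes the litters disagreed. Pik3ca, the p110-alpha catalytic subunit, gave 504, 196 and 351 in the deficient arrays of litters 1, 2 and 3, against 931, 231 and 242 in the proficient arrays, so it was lower in the deficient arrays of litters 1 and 2 and higher in that of litter 3. All 5 of its tested probe sets were lower on the mean, with log2 differences between -0.62 and -0.13. The smallest unadjusted p among them was 0.0132, with a limma adjusted p of 0.28, for the fourth in brightness, which was lower in all 3 litters. Pik3cd, the p110-delta subunit of leucocytes, gave 19114, 22659 and 11240 in deficient cells, against 7879.9, 28385 and 8773 in proficient cells on its brightest probe set, and its mean log2 difference of 0.44 became 0.016 without litter 1. The next probe set of Pik3cd gave 72.2, 70.6 and 108 in deficient cells, against 133, 103 and 48.6 in proficient cells, with a log2 difference of the other sign, -0.089, so the readings of this gene are uncertain. Pik3r1, the regulatory subunit p85-alpha, gave 1103, 335 and 784 in deficient cells, against 1343, 281 and 403 in proficient cells, with litter differences of -0.28, 0.23 and 0.91.

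Neither AKT gene was called. Akt1 gave 124, 104 and 237 in deficient cells, against 132, 136 and 124 in proficient cells, and only the deficient array of litter 3 stood apart from the rest. Akt2 gave 120.2, 82.9 and 70.1 in deficient cells, against 97.9, 124 and 94 in proficient cells, and its log2 difference of -0.18 was smaller than its standard error of 0.24.

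No gene of a FOXO factor, which AKT restrains, was called. Foxo3, the FOXO gene most closely tied to blood stem cell maintenance, gave 5843, 3390.1 and 6109 in the deficient arrays of litters 1, 2 and 3, against 5464, 3362 and 7293 in the proficient arrays. The litters differed from each other more than the genotypes did, and the log2 difference was -0.049 with a 95% interval of -0.57 to 0.47. Foxo1 gave 89.8, 78.2 and 65 in deficient cells, against 165, 63.8 and 66 in proficient cells, with all 3 tested probe sets lower on the mean by differences between -0.18 and -0.12, and no adjusted p under 0.752. Foxo4 left the floor clearly on a single deficient array, at 53.3 in litter 3, and on a single proficient array, at 36.2 in litter 2. Sesn3, a sestrin that FOXO factors induce and that holds mTORC1 down, gave 97.7, 82.2 and 58.3 in the deficient arrays of litters 1, 2 and 3, against 154, 103 and 104 in the proficient arrays. It was lower in each deficient array and the genotypes did not overlap, at a log2 difference of -0.46 (SE 0.24, limma adjusted p = 0.476). Its second probe set was lower too, at a log2 difference of -0.25.

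The brakes on mTORC1 were led by Ddit4, a stress-induced gene whose protein restrains mTORC1 through the TSC complex. It gave 34.7, 130.1 and 512 in the deficient arrays of litters 1, 2 and 3, against 214, 184 and 476 in the proficient arrays. The proficient arrays of litters 1 and 2 were alike, while the deficient array of litter 1 sat close to the floor and both arrays of litter 3 were high. Litter differences were therefore -1.91, -0.42 and 0.099, and the mean of -0.74 (SE 0.29, limma adjusted p = 0.308) became -0.16 without litter 1. Tsc1, which forms the brake on Rheb together with Tsc2, gave 278, 149.7 and 202 in deficient cells, against 301, 201 and 297 in proficient cells. Each deficient array was below its litter mate, at a mean log2 difference of -0.32 (SE 0.23, limma adjusted p = 0.635), and the second Tsc1 probe set was at -0.22. Tsc2 lay between 30 and 31.7 on all arrays and was not tested.

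The energy sensors gave no call either. Stk11, the LKB1 kinase that activates AMPK, gave 75.3, 116 and 149 in deficient cells, against 96.8, 129.9 and 133 in proficient cells, at a log2 difference of -0.089. Prkaa1, the AMPK catalytic subunit alpha-1, gave 92.8, 58.2 and 36.7 in deficient cells, against 70.3, 49.7 and 36.5 in proficient cells. It was higher in every deficient array, by litter differences of 0.29, 0.14 and 0.0034, the last of them near 0. The other catalytic subunit gene, Prkaa2, was above the floor on 1 array only, at 35.1 in deficient cells of litter 1, and was not tested.

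In the mTOR complexes, Deptor stood out by 1 litter on its brightest probe set. Its protein binds mTOR and inhibits it, and it gave 882, 977 and 1066 in the deficient arrays of litters 1, 2 and 3, against 759, 944 and 358 in the proficient arrays. All 3 deficient arrays were close together, and only the proficient array of litter 3 was low. The mean log2 difference was 0.58 (SE 0.26, limma adjusted p = 0.378), and 0.13 without litter 3. The second Deptor probe set had litter differences of -0.19, 0.86 and 0.53, with a mean of 0.40. Of its 4 tested probe sets, 3 were above 0 on the mean and 1 below. Mtor, the kinase itself, gave 161, 184 and 221 in deficient cells, against 152, 328 and 157 in proficient cells, where the proficient array of litter 2 was the highest. Rptor, the scaffold of mTORC1, showed the same order of the 6 arrays, with 122, 124 and 129 in deficient cells, against 108, 183 and 110 in proficient cells. Rictor, the scaffold of mTORC2, gave 432, 156 and 189 in deficient cells, against 539.9, 206 and 184 in proficient cells, and all 4 of its tested probe sets were lower on the mean, by log2 differences between -0.27 and -0.17, with no adjusted p under 0.547. Rheb, the GTPase that switches mTORC1 on, gave 1273, 2708 and 2212 in deficient cells, against 1162, 1897 and 2985 in proficient cells, with litter differences of 0.13, 0.51 and -0.43.

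Of the translation effectors, Eif4ebp1, the repressor of cap-dependent translation that mTORC1 inactivates, gave 762, 1950.5 and 926 in the deficient arrays of litters 1, 2 and 3, against 377, 1610.1 and 874 in the proficient arrays on its brightest probe set. The deficient array was higher in each litter, mostly in litter 1, at a mean log2 difference of 0.44 (SE 0.23, limma adjusted p = 0.499) and of 0.18 without litter 1. The second Eif4ebp1 probe set gave 118, 515 and 228 in deficient cells, against 83.2, 550 and 308 in proficient cells. Litter differences there were 0.39, -0.088 and -0.39, with a mean of -0.028. The dimmest tested probe set went the other way, with 32, 30 and 30 in deficient cells, against 44.4, 57.2 and 45.2 in proficient cells. Its log2 difference was -0.38 (SE 0.16, limma adjusted p = 0.352). The brightest one is of the type whose probes can also match other transcripts. Eif4ebp2, a second such repressor, gave 363, 238 and 305 in deficient cells, against 290.4, 235 and 307 in proficient cells on its brightest probe set. The next probe set gave 65.5, 74.3 and 109.6 in deficient cells, against 53.2, 65 and 34 in proficient cells, so the genotypes did not overlap there, and its log2 difference was 0.49 (SE 0.23, limma adjusted p = 0.432).

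Probe sets of the same gene often differed in sign. There were 63 tested probe sets for the 27 genes and 0 were called. Of the 19 genes with more than 1 tested probe set, 9 had all their differences on the same side of 0 and 10 had differences on both sides. Pik3ca, Rictor, Foxo1, Foxo3, Tsc1, Mtor and Sesn3 were lower on every tested probe set, and Igf1 and Eif4ebp2 were higher on every one, although centring each array on its median put the brightest probe sets of Foxo3 and Mtor above 0, at 0.042 and 0.0056.

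**Figure D3:**
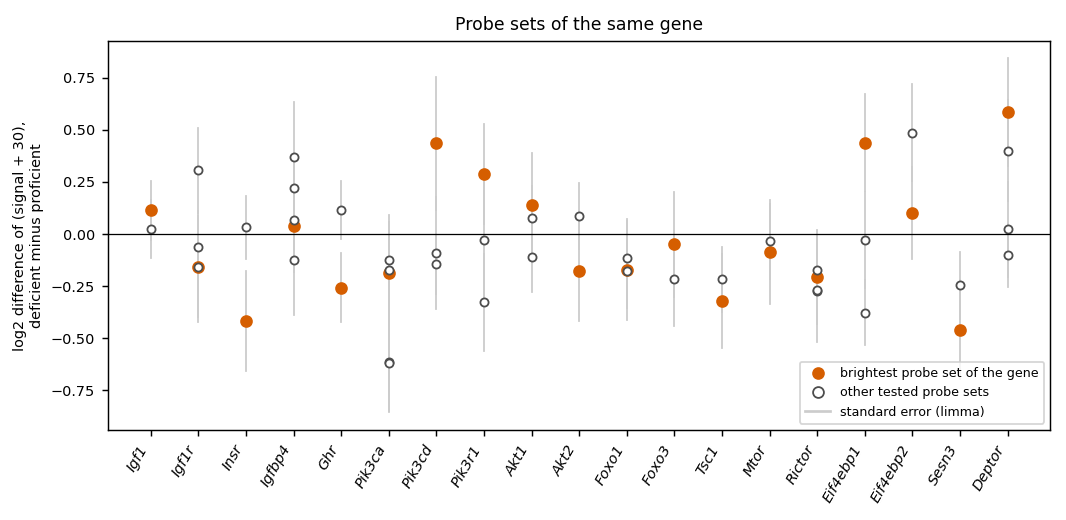
Log2 difference of signal + 30, deficient minus proficient, on the vertical axis for each tested probe set of the 19 genes with more than 1. Filled points are the brightest probe set of the gene, open points the others and grey lines the standard error from limma; the points of Pik3cd, Pik3r1 and Eif4ebp1 lie on both sides of 0, and the 5 points of Pik3ca all lie below it.

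Litters 1 and 3 differed in the direction of many of these genes. In litter 1 the members had a median log2 difference of -0.0017 with 12 higher and 14 lower, in litter 2 of -0.13 with 11 higher and 16 lower, and in litter 3 of 0.099 with 18 higher and 7 lower. The medians over all tested probe sets were 0, -0.019 and 0. In litter 3, 66.7% of the pathway genes were higher, against 40.5% of all probe sets tested. Of the 27 genes, 10 (37.0%) were below 0 in litter 1 and above 0 in litter 3, against 17.2% of all probe sets tested. Insr, Igf1r, Pik3ca, Pik3r1, Akt1 and Ddit4 were among them. This is a description of 3 pairs of arrays, and litter 3 is also the litter whose proficient sample was +/d. The litters differed in age too, with 22 weeks in litter 1 and 20 weeks in litter 3. The RNA controls differed between litters as well. The log2 difference between the 3′ and 5′ probe sets of Actb was 4.70, 4.20 and 3.27 in the deficient arrays, against 3.85, 4.34 and 3.64 in the proficient arrays, so it was larger in the deficient array in litter 1 and smaller in litters 2 and 3. The same difference for Gapdh was 4.01, 2.36 and 2.26 in the deficient arrays, against 3.13, 2.86 and 2.63 in the proficient arrays. The hybridisation spike-ins bioB, bioC, bioD and cre were brighter in the deficient array by 1.16 to 1.26 on the log2 scale in litter 1, by 0.060 to 0.20 in litter 2 and by 0.16 to 0.21 in litter 3. For 18S ribosomal RNA the deficient minus proficient difference was 0.045, 0.86 and 0.63. The deficient array of litter 1 thus stood apart in its 3′ to 5′ difference for Gapdh and in its spike-ins. Ddit4, Insr and Pik3cd had their widest difference in litter 1, but Deptor, Sgk1 and Pik3r1 in litter 3 and Mtor in litter 2. The part of these controls in the litter pattern was not tested.

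Genes other than the members were read in 7 lists, of the wider pathway and of glucocorticoid targets. Of 139 listed genes 110 were tested, and 1 was called. That is 0.909% of those tested, against 0.835% of all probe sets tested, so the count was near the background. The call came from the list of glucocorticoid targets, and the lists of the wider pathway gave none. The called gene was Tsc22d3, a glucocorticoid-induced leucine zipper gene that FOXO3 also induces, with 100.2, 104 and 214 in the deficient arrays of litters 1, 2 and 3, against 481, 207 and 587 in the proficient arrays. It fell in deficient cells, lower in each litter, although the deficient array of litter 3 at 214 overlapped the proficient array of litter 2 at 207. The log2 difference was -1.38 (SE 0.24, limma adjusted p = 0.00555). Its second probe set went the other way, with 108, 125 and 144 in deficient cells, against 79.1, 31.8 and 115 in proficient cells. The log2 difference there was 0.64 (SE 0.25, limma adjusted p = 0.322). This second one is of the type whose probes can also match other transcripts. The third gave -0.28, so the gene's direction depended on the probe set. With group as the only term, or with any litter left out, limma called 0 probe sets of the array, so the calls of Ercc1, Tsc22d3 and the marker genes were lost there too.

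The 12 other tested glucocorticoid target genes gave no call. Signs in the list were mixed, with 5 of the 13 tested higher and 8 lower (7 and 6 after median centring). The median log2 difference was -0.056. At an unadjusted limma p under 0.05 there were 4 of the 13, against 11.5% of all probe sets tested. These were Tsc22d3, Sult1a1 at -0.72, Dusp1 at 0.77 and Mt1 at 0.62 on the log2 scale. Fkbp5, which encodes a chaperone of the glucocorticoid receptor and is among its most used target genes, gave 221, 133 and 261 in deficient cells, against 230.2, 170.3 and 227 in proficient cells, at -0.056.

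Genes that FOXO factors are known to induce gave 0 calls of 20 tested, with 6 higher and 14 lower and a median log2 difference of -0.077. The lean to lower values depended on the scaling: after median centring 11 were higher and 9 lower, with a median of 0.014, while quantile normalization left 6 higher and 14 lower. Txnip, which restrains glucose uptake and binds thioredoxin, gave 929.9, 868 and 1308 in the deficient arrays of litters 1, 2 and 3, against 3638, 1299.9 and 1733 in the proficient arrays. It was lower in all 3 litters, most in litter 1, at a log2 difference of -0.97 (SE 0.27, limma adjusted p = 0.105). Cdkn1a, the cell cycle inhibitor p21, gave 135, 170.1 and 141 in the deficient arrays of litters 1, 2 and 3, against 70.3, 86.8 and 67.3 in the proficient arrays. The genotypes did not overlap and the litter differences of 0.71, 0.78 and 0.82 were nearly equal, at a mean of 0.77 (SE 0.23, limma adjusted p = 0.153). Cdkn1a is also a target of p53. The other FOXO targets included Il7r at -0.67, Ccng2 at -0.47 and Sod2 at -0.045 on the log2 scale. Besides Cdkn1a, those above 0 were Klf4 at 0.48, Bbc3 at 0.26, Cdkn1b at 0.13, Cat at 0.093 and Klf2 at 0.030.

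The remaining 5 lists gave 0 calls, or 2 calls after median centring, 1 each in the receptor and the PI3K lists and both higher, and the 2 genes of smallest p in each list are given as values. In the IGF, growth hormone and insulin receptor axis, with 5 higher and 8 lower of 13, Grb10, an adaptor that inhibits the insulin and IGF1 receptors, gave 473, 134 and 201 in deficient cells, against 806, 245 and 388 in proficient cells. Its ratio was much the same in each litter, with log2 differences of -0.73, -0.75 and -0.86 and a mean of -0.78 (SE 0.22, limma adjusted p = 0.116). Socs2, a feedback inhibitor of growth hormone signalling, gave 313, 285 and 165 in deficient cells, against 118, 130.1 and 139.8 in proficient cells, without overlap, at 0.80 (SE 0.24, limma adjusted p = 0.157). Among PI3K, phosphatase and AKT genes, with 10 higher and 8 lower of 18, Pik3cb, the p110-beta subunit, gave 82.5, 54.9 and 78.5 in deficient cells, against 31.6, 38.9 and 32.5 in proficient cells, without overlap, at 0.65 (SE 0.19, limma adjusted p = 0.137). Phlpp1, a phosphatase of AKT, was at -0.59 on the log2 scale and lower in all 3 litters.

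Of 25 mTOR complex, TSC and amino acid sensing genes, 12 were higher and 13 lower. Rhebl1, a relative of Rheb, was at -0.71 on the log2 scale and Mlst8, a subunit shared by both mTOR complexes, at -0.44. Of 9 mTORC1 effectors, 5 were higher and 4 lower. Ulk1, the kinase that starts autophagy when mTORC1 is off, gave 35.8, 41.2 and 42.2 in deficient cells, against 81.2, 96.6 and 66.7 in proficient cells, without overlap, at -0.67 (SE 0.20, limma adjusted p = 0.156). Its relative Ulk2 was at -0.58. Of 12 LKB1 and AMPK genes, 6 were higher and 6 lower. Prkab2, a regulatory subunit of AMPK, was at -0.65 and lower in all 3 litters, and Cab39l, which belongs to the family of LKB1 scaffold proteins, at 0.32.

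**Figure D4:**
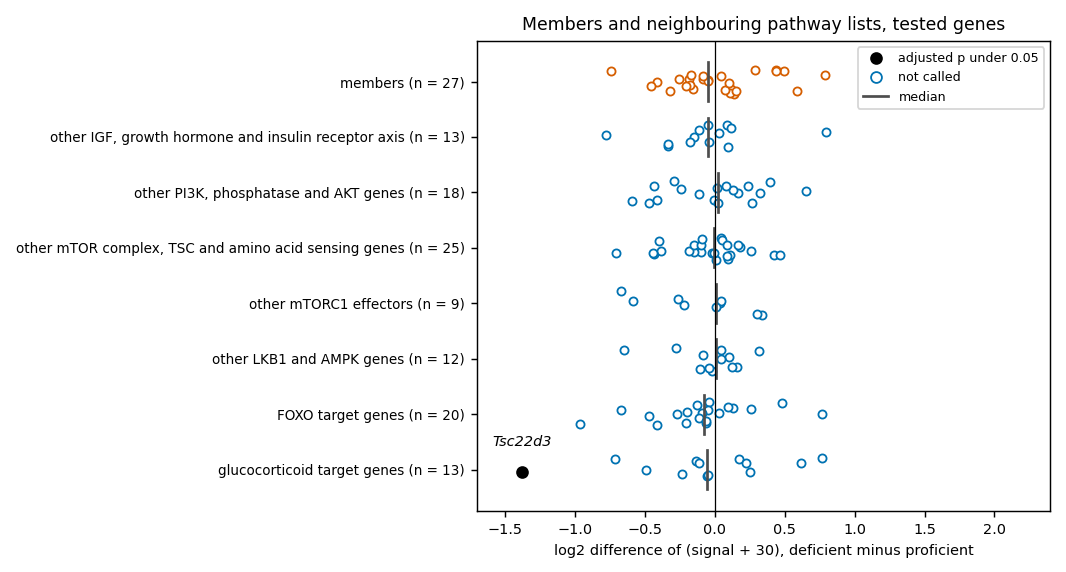
Log2 difference of signal + 30, deficient minus proficient, on the horizontal axis for the tested pathway members (top) and the tested genes of 7 lists of other genes, 1 point per gene at its brightest probe set; vertical positions within a line are spread only for legibility. Dark bars are medians, which lie between -0.077 and 0.019, and the filled point is Tsc22d3 at -1.38, the one called gene.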

How the data were processed

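The labels' protocols describe sorting of LSK cells, 2 rounds of linear RNA amplification and hybridisation of 6 arrays. Signal intensity on a linear scale was deposited, and MAS5 is the tool in the submitters' processing notes; how the arrays were scaled and floored is not stated there. Amplification favours 3′ ends, and the floor hides differences among weak genes. Gene names came from the 2016 annotation of the array, and only probe sets with 1 gene symbol were used.

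Signals were transformed as log2(signal + 30), which understates changes of dim genes. The 22519 probe sets with a mean signal of at least the median, 32.6, were fitted with limma 3.58.1 in R 4.3.3 (lmFit, eBayes with a variance trend), with group and litter as terms, and Benjamini-Hochberg adjustment over all of them at 0.05. The fit was tested on simulated data, with changes placed only in the brighter probe sets and no floor, so dim genes were not covered. The labels name equal-numbered arrays as litter mates, and the departures of paired arrays from their group's mean correlated with r = 0.77, 0.67 and 0.46 in litters 1, 2 and 3. Array precision is limited by the 3 arrays per group, and the p-values cover only the spread among these 6 samples, which may be partly technical. The members and lists were chosen with earlier results of these data known. Named genes were all members, each called gene of a list or otherwise its 2 genes of smallest p, and Ercc1. Il7r, Ccng2, Sod2, Fkbp5, Cd48 and Slamf1 were added after their values were seen. The same holds for Kit, Cd34, Meis1, Sult1a1, Dusp1, Mt1, Klf4, Bbc3, Cdkn1b, Cat and Klf2. Alternatives covered the litter term, pseudocount, normalization, filter, variance model, probe set choice and left-out litters or arrays.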

Additional observations from a re-analysis of the deposited data

How the results depend on the processing

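Over 20 alternatives the number of pathway genes called stayed at 0, except under median centring, which called 1 gene, Sgk1. The whole table was less stable. Without the replicate block that pairs litter mates, 0 probe sets were called, against 188 with it, and 0 with no filter, 114 with no variance trend, 331 with a robust variance model and 332 under median centring. Median centring, which moved the median of all probe sets from -0.03 to 0.06, turned the split of 71 higher and 117 lower calls into 193 higher and 139 lower, and the 13 higher and 14 lower pathway genes into 17 and 10. Leaving out any litter, or any array without the litter term, gave 0 to 0 calls, and fewer samples remain in those fits. The median over the pathway genes then ranged from -0.11 to 0.10. Insr, Igfbp7, Ghr, Pik3cd, Akt2, Tsc1, Ddit4, Sesn3, Deptor and Sgk1 kept their sign in every alternative in which they were tested. Igfbp7 was too dim for the strictest brightness filter and for the mean over probe sets, and Ghr for both of these and for the filter that asks 1 genotype to exceed the floor throughout. With all arrays kept, 7 of 284 values changed sign: Foxo3 to 0.042, Mtor to 0.0056, Rptor to 0.039 and Stk11 to 0.0014 under median centring, Rheb to -0.054 and Rptor to 0.020 under quantile normalization, and Pik3r1 to -0.016 as the mean over its probe sets. With a litter or array left out, log2 differences changed sign for 17 genes, over these ranges: Igf1 -0.00884 to 0.17, Igf1r -0.42 to 0.18, Igfbp4 -0.11 to 0.24, Pik3ca -0.53 to 0.43, Pik3r1 -0.15 to 0.92, Akt1 -0.19 to 0.36, Foxo1 -0.36 to 0.18, Foxo3 -0.35 to 0.22, Foxo4 -0.0718 to 0.24, Rheb -0.27 to 0.40, Mtor -0.34 to 0.25, Rptor -0.17 to 0.16, Rictor -0.60 to 0.24, Eif4ebp1 -0.0891 to 0.92, Eif4ebp2 -0.0295 to 0.25, Stk11 -0.27 to 0.12 and Prkaa1 -0.0796 to 0.36. The cause of these changes was not tested. The counts of the gene lists under median centring and quantile normalization were added after seeing the data. Signals at the floor limit what can be said of Igf1, Foxo4, Ghr, Irs1, Irs2, Tsc2 and Prkaa2.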
